A study of Mus musculus with 27 samples.

Results

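The late response to ionizing radiation was examined in mouse embryonic fibroblasts with a low array signal for Akt1, the gene of protein kinase B alpha (PKBalpha). The comparison sets the 6 arrays taken 24 h after 10 Gy of gamma radiation against the 6 untreated arrays of the same lines. They were chosen by line and time from the sample titles and make up 12 of the 27 arrays of the series. The lines were PKBa -/- MEF, called the knockout here, and PKBa -/- R MEF, called line R here, which the labels describe as the knockout with PKBalpha put back. Each line contributed 3 arrays at 24 h and 3 untreated arrays. The other 15 arrays were those of both lines at 4 h and those of a wild-type line, untreated, at 4 h and at 24 h. All cells were female, at passage 45, and grown with serum.

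The study measured messenger RNA on Affymetrix mouse arrays and took untreated cells of each genotype as the baseline. Its design text calls the 3 arrays of a group biological replicates. Each genotype was 1 line, so the spread between replicates is that within a line. How long untreated cells stayed in culture is not labelled, and irradiation and the further time in culture therefore cannot be told apart at 24 h. A lower signal can come from fewer cells of a kind or from less RNA per cell, and bulk RNA cannot separate these.

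PKBalpha is a serine/threonine kinase that acts below phosphoinositide 3-kinase and supports growth and survival. Radiation breaks DNA, which activates the kinase ATM and, through it, the transcription factor p53. p53 in turn raises genes such as Cdkn1a, whose product p21 halts the cell cycle. Radiation and other stresses also act on MAP kinases, which switch on the immediate early genes. These encode transcription factors such as Fos, Jun, Egr1 and Nr4a1, and in fibroblasts are best known for a brief pulse after serum is added.

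Akt1 read 37.1, 9.55 and 17.5 on the 3 knockout arrays at 24 h (intensity, brightest probe set), against 2.35, 52.7 and 24.9 untreated. In line R it read 28, 19.9 and 20.5 at 24 h, against 41.9, 29.3 and 7.44 untreated. The wild-type arrays read 2980 to 3110 at 24 h and 2990 to 4460 untreated. All but 1 of the 12 values of the Akt1-low lines lay under the background level of 48.3. This level is the highest reading of probe sets for 3 genes of the Y chromosome, which is absent from female cells. A further Y-linked gene, Sry, was not used for it and read up to 69.9, in line R at 24 h. By the brightest Akt1 probe set both lines were low in the transcript, and they are called Akt1-low here. Another Akt1 probe set averaged 51.3 at 24 h and 57.2 untreated in them, just above background but under the highest Sry reading. Which of these probe sets would read the reintroduced copy is not given in the sources used here. Akt2, the gene of the related kinase PKBbeta, averaged 717 at 24 h and 784 untreated (geometric means of 6 arrays each) and did not pass the test (log2 difference -0.13 ± 0.10 (SE), adjusted p = 0.806, limma).

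Of 13 fibroblast markers, 13 were above the background level, and their summed intensity was 157000 to 221000 on the 24 h arrays and 174000 to 209000 on the untreated arrays. Few markers of endothelial cells (1 of 10) or of epithelial and mesothelial cells (2 of 11) exceeded it. Of the macrophage markers 6 of 11 did, with sums of 594 to 1330 at 24 h and 471 to 970 untreated. Of that list, Ptprc (6.04 at 24 h, 3.76 untreated) and Tyrobp (9.79 and 20.2) lay below background, while Cd53 read 184 at 24 h and 112 untreated and Csf1r 155 and 107. The macrophage list had a median difference of 0.44 with 7 of 11 positive. Skeletal muscle markers (4 of 11 above background) had a median of 0.30 with 11 positive, and neural markers (6 of 10) one of 0.28 with 8 positive. With values floored at the background level, the macrophage median was 0.10 and the neural one 0.13. The muscle median was then 0, with 4 of 9 positive. None of these 3 lists held a gene that passed the test, and the part of these genes in the results below was not tested. In 5 of the 27 arrays the control probe sets for the 3' and 5' ends of Gapdh stood apart, with a log2 ratio of -0.187 to 0.16 against -0.466 to -0.298 on the other 22. Among the 12 arrays these were replicate 2 of line R at 24 h, replicate 2 of the untreated knockout and replicate 1 of untreated line R. Without the 5 arrays the median was 0.29 for macrophage markers (7 of 11 positive), 0.31 for skeletal muscle (7 of 11) and 0.10 for neural markers (6 of 10). Values without the 5 arrays are given below for the called genes and for the lists and genes that rest on these arrays.

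At 24 h few genes passed the test in the pooled lines, and most of those that did were higher. Transcription factor genes were among them: Klf10, Nr4a1, Klf4 and Ahr rose. So did Glipr1, Serpinb9b, Kcnk2 and the dim gene Cym, and Zfp41 fell. In all, 9 of 18193 genes passed (0.0495%), 8 higher (0.044%) and 1 lower (0.0055%), by limma's moderated test on log2 intensities with a Benjamini-Hochberg adjusted p below 0.05 over all genes. Without adjustment, 867 genes were higher (4.77%) and 586 lower (3.22%) at p below 0.05.

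Neither line gave a call alone by limma, although 1064 genes in the knockout and 830 in line R had an unadjusted p below 0.05. The smallest adjusted p was 0.0776 in the knockout and 0.0515, that of Klf10, in line R. The count of 9 was sensitive to which arrays were used. It was 0, with 1260 genes at an unadjusted p below 0.05, when limma was fitted to the 12 arrays alone instead of all 27. That fit also gave both lines a shared 24 h term, so the model changed along with the arrays. Without the 5 arrays that stand apart the count was 3. Those 3 were Klf10, Serpinb9b and Adamts20, a metalloprotease gene that lay below background in both groups (named after its values were seen). The count was 1, namely Klf10, without any 1 of replicate 0 of the untreated knockout, replicates 0 and 2 of the knockout at 24 h, or any of the 3 arrays of line R at 24 h. It was 4 without replicate 2 of the untreated knockout and without replicate 1 of the knockout at 24 h, and 3 without replicate 1 of untreated line R. With equal array medians, 3 genes were higher and 5 lower. Restricted to the 9096 genes above the median level, the test called 35, of which 21 were higher and 14 lower.

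The lines hold different arrays throughout, so each is a separate reading of the 24 h difference. Over 10735 genes above background the differences in the knockout and in line R correlated with r = 0.392 (Spearman's rho 0.389), and 65% had the same sign. This is a description across genes, which are not independent of each other, and each line's arrays share 1 untreated baseline. Of the 516 such genes with an unadjusted p below 0.05 in the knockout, 87.2% had the same sign in line R. Of the 425 in line R, 86.4% had the same sign in the knockout. Over the genome, all 3 arrays at 24 h lay above all 3 untreated arrays in both lines for 142 genes (0.781%), and below them for 113 (0.621%).

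**Figure D1:**
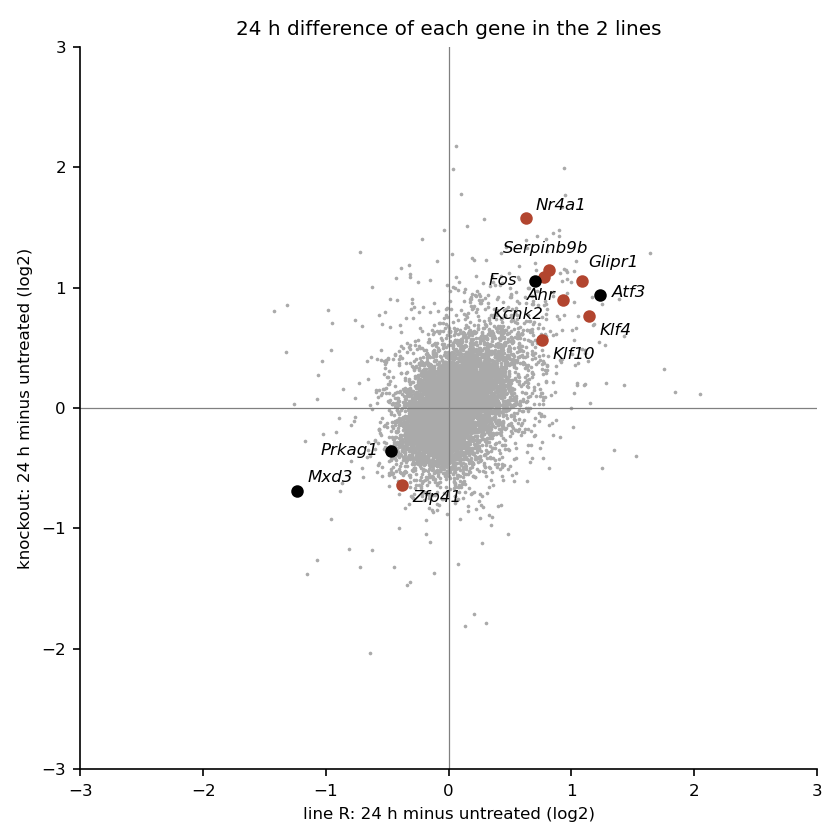
Log2 difference between 24 h and untreated cells in the knockout (vertical axis) and in line R (horizontal axis) for 10735 genes above background. Red points passed the pooled test and lie away from 0 in both lines, and black points are named genes that did not pass.

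Klf10 encodes a zinc finger transcription factor that is induced early by TGF-beta. It read 1090, 970 and 1010 in the knockout at 24 h, against 733, 683 and 656 untreated. Line R read 1040, 988 and 941 at 24 h, against 702, 484 and 582 untreated. In both lines every 24 h array lay above every untreated array, and the 24 h levels of the lines nearly coincided. Klf10 rose 1.59-fold (0.67 ± 0.09, adjusted p = 0.00569). It was the one gene that passed in each of the 12 fits that left out 1 array, and without the 5 arrays that stand apart it rose by 0.60 (adjusted p = 0.0326). Its adjusted p was 0.256 when limma was fitted to the 12 arrays alone, with a shared 24 h term for both lines.

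Nr4a1 encodes an orphan nuclear receptor and is an immediate early gene. It read 1030, 750 and 1060 in the knockout at 24 h, against 347, 249 and 359 untreated. The line R arrays read 364, 396 and 359 at 24 h, against 314, 244 and 183 untreated. The groups were separate in both lines, but the line R arrays at 24 h were close to the top untreated knockout arrays. Nr4a1 rose 2.15-fold (1.10 ± 0.18, adjusted p = 0.0331). The difference was 1.58 ± 0.25 in the knockout and 0.63 ± 0.25 in line R. The difference between the lines had an unadjusted p of 0.0145 and did not pass after adjustment over all genes (line R minus knockout -0.95 ± 0.35, adjusted p = 1).

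Klf4 encodes another zinc finger transcription factor, known for its part in reprogramming fibroblasts to pluripotency. In the knockout it read 328, 259 and 259 at 24 h, against 171, 146 and 180 untreated. The values in line R were 337, 430 and 503 at 24 h, against 127, 219 and 243 untreated. No 24 h value reached down to an untreated value of its own line. Klf4 rose 1.93-fold (0.95 ± 0.17, adjusted p = 0.0428), and its second probe set gave 0.93 ± 0.31 (adjusted p = 0.503 over probe sets).

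Bases before the start of Nr4a1, Klf4 and Fos are printed because these are rapidly induced genes, of which Fos and Nr4a1 are known for control elements in this window. The cyclic AMP response element is bound by CREB, a factor that several kinases phosphorylate, and its half-site reads TGACG on 1 strand and CGTCA on the other. The 250 bases upstream of each start are from RefSeq (GRCm38.p6), written in the direction of transcription, with the half-sites in capitals. Nr4a1 lies on the plus strand at chr15:101266596-101266845, Fos on the plus strand at chr12:85473640-85473889 and Klf4 on the minus strand at chr4:55532476-55532725.
Nr4a1: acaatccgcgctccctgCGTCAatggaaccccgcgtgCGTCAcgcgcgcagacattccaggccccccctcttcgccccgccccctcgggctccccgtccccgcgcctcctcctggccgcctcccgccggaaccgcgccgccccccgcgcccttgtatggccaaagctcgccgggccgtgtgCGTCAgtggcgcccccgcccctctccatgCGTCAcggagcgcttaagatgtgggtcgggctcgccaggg
Fos: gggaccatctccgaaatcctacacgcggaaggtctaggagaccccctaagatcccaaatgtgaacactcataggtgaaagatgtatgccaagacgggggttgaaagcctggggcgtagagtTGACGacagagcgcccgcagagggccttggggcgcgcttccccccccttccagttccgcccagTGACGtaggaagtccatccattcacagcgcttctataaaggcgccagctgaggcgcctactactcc
Klf4: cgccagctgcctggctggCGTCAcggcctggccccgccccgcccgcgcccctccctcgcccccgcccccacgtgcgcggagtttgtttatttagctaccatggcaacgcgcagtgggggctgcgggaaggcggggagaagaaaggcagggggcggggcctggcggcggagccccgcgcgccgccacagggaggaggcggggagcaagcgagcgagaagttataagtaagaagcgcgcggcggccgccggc
The windows held 4 half-sites for Nr4a1, 2 for Fos and 1 for Klf4. Of the 15 immediate early genes with an entry in the table, 10 held at least 1 half-site (66.7%), against 5347 of 27025 genes (19.8%). The half-site holds the bases CG, and the compared genes were not matched for base composition. A match is a description of these letters and says nothing of binding in these cells. Klf10, Ahr and Glipr1 had no entry.

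Ahr encodes the aryl hydrocarbon receptor, a transcription factor that binds dioxin-like and other aromatic ligands. It read 166, 142 and 180 in the knockout at 24 h, against 66.3, 87.1 and 77.2 untreated. For line R the values were 306, 263 and 279 at 24 h, against 210, 142 and 150 untreated. The groups did not overlap in either line, and line R was the higher one at each time. Ahr rose 1.9-fold (0.93 ± 0.16, adjusted p = 0.0331). Its second probe set is near background, and the mean of both did not pass (adjusted p = 0.529).

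Kcnk2 encodes a leak potassium channel that membrane stretch opens. It read 286, 267 and 287 in the knockout at 24 h, against 168, 139 and 147 untreated. In line R it read 307, 370 and 370 at 24 h, against 190, 153 and 207 untreated. The 24 h arrays were tight in the knockout and lay well clear of the untreated ones. Kcnk2 rose 1.88-fold (0.91 ± 0.16, adjusted p = 0.0331).

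Glipr1 encodes a secreted protein of the CAP family and is a known p53 target. It read 338, 283 and 493 in the knockout at 24 h, against 174, 197 and 155 untreated. Line R read 950, 991 and 1010 at 24 h, against 384, 492 and 527 untreated. The groups were separate in both lines, and line R lay above the knockout at both times. Glipr1 rose 2.1-fold (1.07 ± 0.18, adjusted p = 0.0331), while its second probe set gave 0.06 ± 0.25, so the probe sets disagree.

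Serpinb9b encodes a protease inhibitor of the serpin family. It read 200, 248 and 259 in the knockout at 24 h, against 105, 110 and 102 untreated. The line R arrays read 232, 201 and 148 at 24 h, against 140, 67.4 and 134 untreated. The lowest line R value at 24 h and the lowest untreated one were both on arrays that stand apart. Serpinb9b rose 1.98-fold (0.98 ± 0.18, adjusted p = 0.0426), and by 0.89 (adjusted p = 0.0114) without the 5 arrays. Cym, the gene of the stomach protease chymosin, also passed (1.56 ± 0.26, adjusted p = 0.0331), but averaged 40.7 at 24 h and 13.8 untreated, both below background, and no fold is given.

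Zfp41, which encodes a zinc finger protein, was the gene that fell. It read 379, 376 and 411 in the knockout at 24 h, against 582, 623 and 614 untreated. The values in line R were 553, 493 and 519 at 24 h, against 589, 711 and 738 untreated. Each 24 h value lay below every untreated value of its line. Zfp41 fell by 0.51 ± 0.09 on the log2 scale (adjusted p = 0.0426), with -0.64 in the knockout and -0.38 in line R.

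Outside Klf10, the calls depended on single arrays. Among the 12 fits that left out 1 array, Nr4a1 and Glipr1 passed in 3, Serpinb9b, Ahr and Cym in 2, and Klf4, Kcnk2 and Zfp41 in 1. The fits without replicates 1 and 2 of the untreated knockout shared 4 and 2 of the 9 genes with the full fit, that without replicate 1 of the knockout at 24 h shared 3, and those without replicates 0, 1 and 2 of untreated line R shared 5, 2 and 5. All 9 genes kept the sign of their difference in every alternative run. Without the 5 arrays that stand apart, Nr4a1 differed by 1.17 (adjusted p = 0.0755), Glipr1 by 1.04 (0.111), Klf4 by 0.97 (0.124), Ahr by 0.88 (0.119), Kcnk2 by 0.82 (0.0858), Cym by 1.57 (0.0925) and Zfp41 by -0.48 (0.125).

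**Figure D2:**
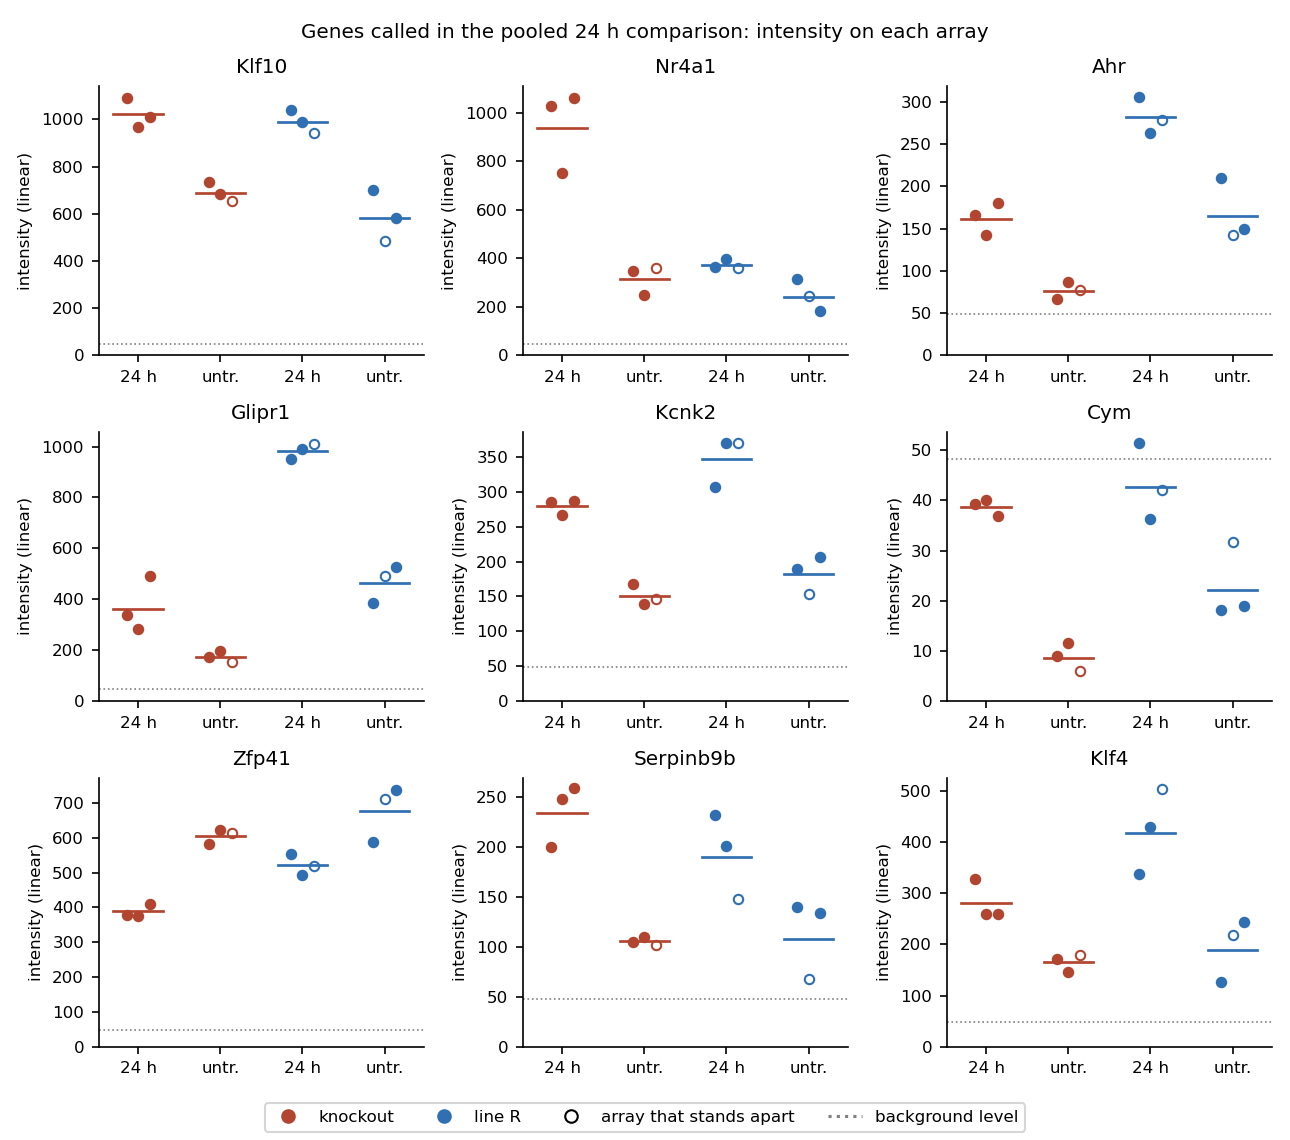
Linear intensity on each array of the 9 genes that passed the pooled test, at 24 h and untreated in the knockout (red) and in line R (blue). Lines are geometric means of 3 arrays, open points are arrays that stand apart and the dotted line is the background level of 48.3. In each line and panel the 24 h arrays do not overlap the untreated ones.

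In the pooled lines with all arrays, the immediate early genes had the highest median difference of the 38 lists. Without the 5 arrays (0.47) and in the knockout alone (0.59) the Y-linked list, which lies below background, was higher (0.77 and 0.70), as were skeletal muscle markers in the knockout alone (0.85). Of 20 measured members 19 had a positive difference and 14 were higher at an unadjusted p below 0.05 (70%, against 4.77% of all genes). After adjustment over all genes 2 passed, Nr4a1 and Klf4 (0.044% of all genes passed in this direction). The median difference was 0.54, against 0.02 over all genes. It was 0.59 in the knockout, with 17 of 20 positive, and 0.52 in line R, with 20 of 20 positive. In 7 of the 20, every 24 h array lay above every untreated array in both lines, against 0.781% of all genes.

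Averaged over the list on the log2 scale, the 24 h arrays of the knockout read 9.68, 9.48 and 9.64, against 8.91, 9.004 and 9.30 untreated. Those of line R read 9.27, 9.30 and 9.47 at 24 h, against 8.77, 8.69 and 8.63 untreated. The 24 h arrays were the higher ones in each line without overlap. The top untreated knockout array and the top line R array at 24 h are among those that stand apart, and the part of that in the result was not tested. Without the 5 arrays the median was 0.47, 20 of 20 members were positive and 14 were higher at an unadjusted p below 0.05, against 5.73% of all genes in that fit, with 0 past adjustment.

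Among the AP-1 factors, which bind DNA as dimers, Fos and Jun were positive in both lines. Fos read 380, 415 and 569 in the knockout at 24 h, against 227, 228 and 194 untreated. For line R the values were 241, 253 and 182 at 24 h, against 211, 125 and 98.4 untreated. The knockout groups were apart, while in line R the lowest 24 h array, one that stands apart, was below the top untreated one. Fos did not pass (0.88 ± 0.20, adjusted p = 0.151), but did among the genes above the median level, as did Atf3 (1.09 ± 0.25, adjusted p = 0.164 over all genes). Jun read 1620, 1390 and 1650 in the knockout at 24 h, against 1060, 960 and 1090 untreated. In line R it read 1370, 1510 and 1320 at 24 h, against 1260, 710 and 952 untreated. The groups were separate in both lines, and the difference did not pass (0.57 ± 0.14, adjusted p = 0.21). Fosl1 differed by 0.76 ± 0.29 (adjusted p = 0.481). Fosb, Fosl2 and Jund lay near 0 (0.05, -0.01 and 0.01), with signs that depended on the arrays and the scaling, and Junb differed by 0.15.

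The EGR zinc finger factors had large and variable differences. Egr2 read 167, 206 and 289 in the knockout at 24 h, against 82.6, 73.2 and 112 untreated, and in line R 173, 134 and 213 at 24 h, against 44.5, 53 and 68.7 untreated. Both lines were without overlap, yet the difference did not pass (1.47 ± 0.47, adjusted p = 0.367). Egr3 differed by 1.02 ± 0.28 (adjusted p = 0.262). Its second probe set, below background, had the opposite sign (-0.445 ± 0.45), and the mean of both gave 0.285. Egr1 read 902, 1140 and 2200 in the knockout at 24 h, against 582, 512 and 1790 untreated. Line R read 1110, 1050 and 2790 at 24 h, against 306, 1670 and 543 untreated. The 3 arrays of the 12 that stand apart were the highest Egr1 reading of their groups. Egr1 differed by 0.94 ± 0.41 (adjusted p = 0.572) with all arrays and by 1.34 ± 0.23 (adjusted p = 0.0755) without the 5.

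Of the remaining members, Nr4a2, the closest relative of Nr4a1, differed by 0.57 (adjusted p = 0.315). Its other probe sets ranged from -1.07, below background, to 0.49, and the mean of all gave 0.037 (limma's adjusted p = 0.986). Myc, the growth-promoting transcription factor, differed by 0.51 (adjusted p = 0.336). Dusp1, a phosphatase that turns MAP kinases off, differed by 0.48, Ier3 by 0.49, Ier2 by 0.35, Klf6 by 0.22 and Klf2 by 0.20, and none passed. A pair of further brakes on the growth factor pathway were singled out after their values were seen. Dusp6, a phosphatase specific to the MAP kinase ERK, averaged 8.40 at 24 h and 7.57 untreated on the log2 scale (0.83 ± 0.20, adjusted p = 0.184). Spry2, an inhibitor of receptor tyrosine kinase signalling, differed by 0.77 ± 0.18 (adjusted p = 0.164). Its second probe set, below background, had the opposite sign (-0.87 ± 0.80), and the mean of both gave -0.05. Rnd1, a small GTPase that loosens the actin skeleton, missed the threshold narrowly (0.61 ± 0.11, adjusted p = 0.053).

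**Figure D3:**
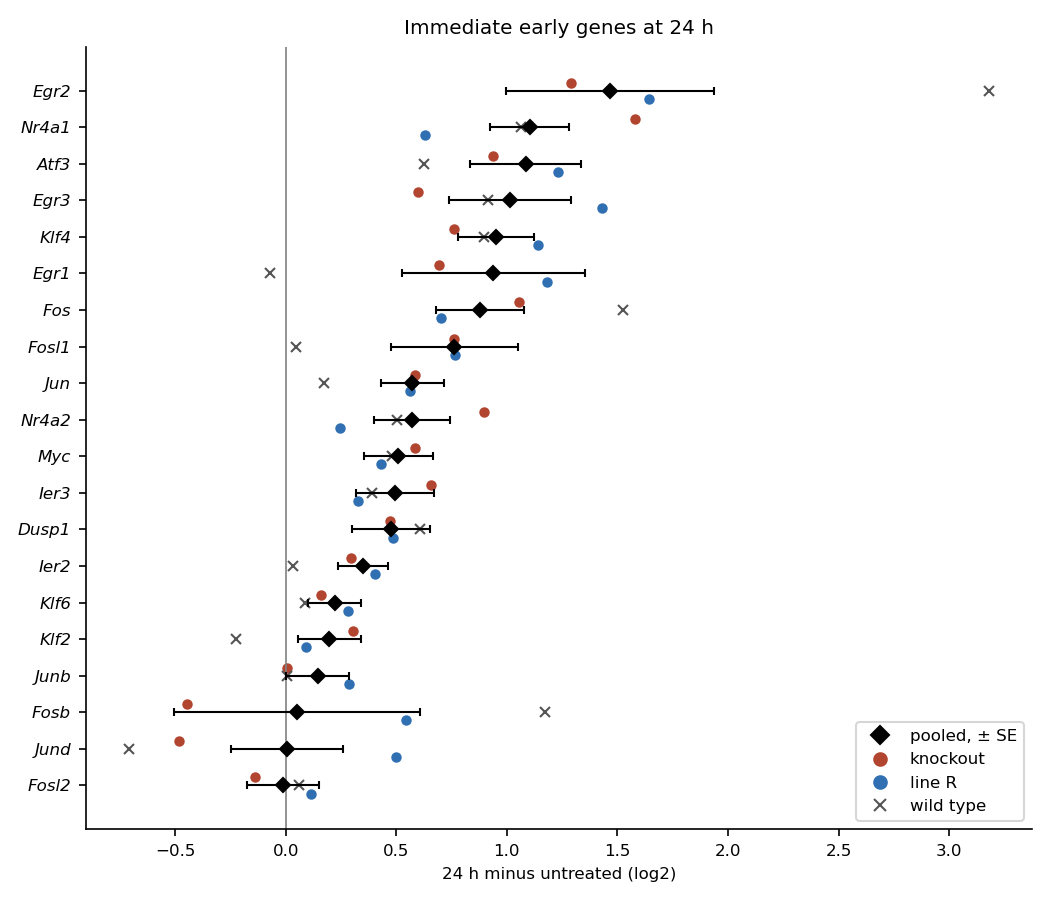
Log2 difference between 24 h and untreated cells for the 20 immediate early genes. Diamonds give the pooled difference with its standard error, red and blue circles the knockout and line R (3 arrays a group), and crosses the wild-type line. All but Fosl2 have a pooled difference above 0.

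The early time point shares its untreated arrays with the 24 h comparison, so the values are set side by side only. At 4 h, 1386 genes passed in the pooled lines, 491 higher (2.7%) and 895 lower (4.92%). Of the 20 immediate early genes 16 had a positive difference at 4 h (47% of all genes had), and 7 passed the test. Klf10 averaged 690 untreated, 1160 at 4 h and 1020 at 24 h in the knockout, and 583, 1060 and 990 in line R. Nr4a1 averaged 314, 772 and 938 in the knockout and 241, 368 and 373 in line R at those times. Klf4 averaged 165, 221 and 280 in the knockout and 189, 355 and 418 in line R. These 3 genes passed at 4 h too, with differences of 0.81, 0.95 and 0.66. Of the other called genes above background, Ahr (0.88), Kcnk2 (0.54) and Zfp41 (-0.36) passed at 4 h as well. Glipr1 (0.30) and Serpinb9b (0.27) did not. Atf3 differed by 0.08 at 4 h and by 1.09 at 24 h, and passed at neither time.

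**Figure D4:**
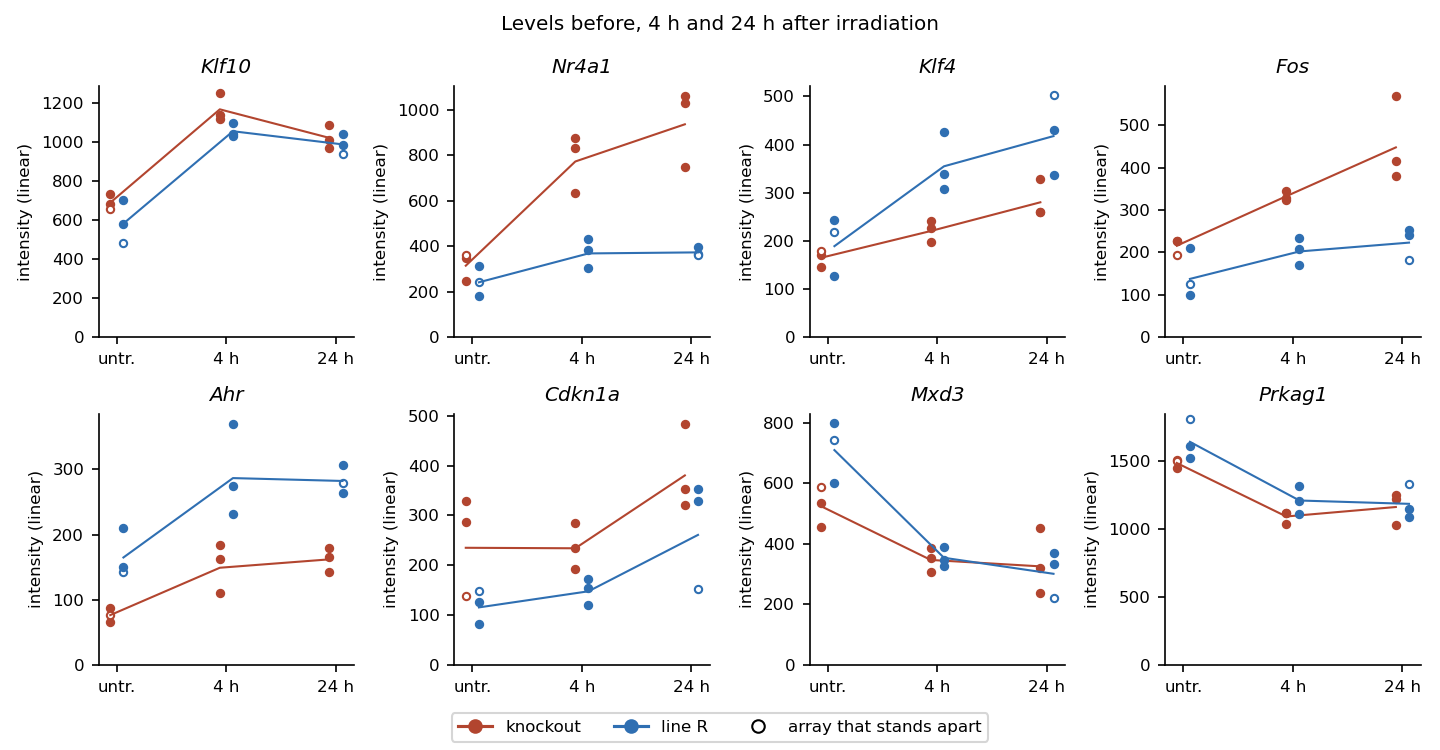
Linear intensity of 8 genes in untreated cells, at 4 h and at 24 h in the knockout (red) and in line R (blue). Points are arrays, open points those that stand apart, and lines join geometric means of 3 arrays. Klf10 averaged 1160 in the knockout at 4 h, while Nr4a1 and Klf4 averaged most at 24 h in both lines.

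The fixed list of p53 targets, which does not hold Glipr1, gave no call at 24 h. Of its 30 measured members 18 had a positive difference (60%, against 52.8% of all genes), with a median of 0.05, and 0 passed by limma, with 3 higher at an unadjusted p below 0.05 (10%, against 4.77% of all genes). Without the 5 arrays the median was 0.09 with 18 positive. Cdkn1a read 321, 484 and 354 in the knockout at 24 h, against 287, 328 and 138 untreated. The line R arrays read 328, 354 and 153 at 24 h, against 82.5, 148 and 126 untreated. The arrays overlapped in the knockout and did not in line R. Cdkn1a did not pass (0.93 ± 0.27, adjusted p = 0.297, and 1.02 with adjusted p = 0.166 without the 5 arrays). Mdm2, the ubiquitin ligase that degrades p53, differed by 0.31 ± 0.37 (adjusted p = 0.894) and the cyclin gene Ccng1 by -0.10 ± 0.15 (adjusted p = 0.923). Mdm2 was lowest in its group on each of the 3 arrays that stand apart, and differed by 0.14 without the 5. Gadd45a, a stress gene that p53 and other factors raise, differed by 0.74 ± 0.19 (adjusted p = 0.21). In the wild-type line the same list had 28 of 30 positive differences and a median of 0.27. The difference between the pooled lines and the wild type did not pass for Cdkn1a (-0.72 ± 0.47, adjusted p = 0.998) or Mdm2 (-0.86 ± 0.65, adjusted p = 0.998), and 0 members of the list passed that test.

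Among cell cycle genes, those of G2 and mitosis had a median of -0.13, with 28 of 35 below 0 (47.2% of all genes were) and 0 past adjustment. At an unadjusted p below 0.05, 5 were lower (14.3%, against 3.22% of all genes) and 1 higher (2.86%, against 4.77%). By line, the median of this list was -0.05 in the knockout, with 14 of 35 positive, and -0.17 in line R, with 4 positive. Mki67, a marker of dividing cells, differed by -0.37 ± 0.16 (adjusted p = 0.566). The motor gene Kif11 differed by -0.23, the topoisomerase gene Top2a by -0.24 and the kinetochore gene Cenpf by -0.27. Without the 5 arrays the median was -0.19 and 10 members were lower at an unadjusted p below 0.05 (4.84% of all genes in that fit). The list of S phase and E2F genes had a median of 0.04 with 17 of 31 positive, and -0.05 with 10 positive without the 5 arrays. By line, its median was 0.11 in the knockout, with 22 positive, and -0.08 in line R, with 7 positive. Of the list on p53 and the INK4 genes, the cell cycle inhibitor gene Cdkn2c differed by -0.24 (adjusted p = 0.355). Homologous recombination genes had a median of 0.00, and genes of break sensing and end joining a median of -0.02.

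After Zfp41, the genes above background with the smallest p among those lower at 24 h missed the threshold. Mxd3, a repressor that binds the Myc partner Max, read 454, 321 and 237 in the knockout at 24 h, against 536, 456 and 589 untreated. The values in line R were 333, 371 and 221 at 24 h, against 601, 743 and 801 untreated. Both lines were without overlap (-0.96 ± 0.18, adjusted p = 0.053), and its 2 other probe sets gave -0.59 and -0.08. Prkag1, a regulatory subunit of the energy sensor AMP kinase, averaged 1170 at 24 h and 1560 untreated (-0.41 ± 0.08, adjusted p = 0.064). Its second probe set gave -0.27 ± 0.20, and the mean of both had an adjusted p of 0.529 by limma. Aarsd1, which removes wrongly attached amino acids from transfer RNA, differed by -0.44 ± 0.09, and 1110038F14Rik by -0.36 ± 0.07 (adjusted p = 0.118 each). All 4 passed when only genes above the median level were tested.

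Genes of lipid synthesis were low in number of calls and mostly below 0. In cholesterol synthesis 15 of 18 differences were negative (median -0.25), with 5 lower at an unadjusted p below 0.05 (27.8%, against 3.22% of all genes) and 0 past adjustment, and the same median without the 5 arrays. Mvk, mevalonate kinase, differed by -0.50 ± 0.14 (adjusted p = 0.243), and Sqle, squalene epoxidase, by -0.25 ± 0.08 (adjusted p = 0.38). In fatty acid synthesis 13 of 14 were negative (median -0.18). Elovl6, which lengthens fatty acids, read 1560, 1660 and 1800 in the knockout at 24 h, against 2260, 2190 and 1950 untreated. For line R the values were 1620, 1580 and 1460 at 24 h, against 2600, 1980 and 1910 untreated. The groups were separate in both lines, and the difference did not pass over all genes (-0.41 ± 0.09, adjusted p = 0.141). The medians in the wild-type line were -0.40 and -0.34.

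Inflammatory lists had small positive medians. Of 26 chemokine and NF-kappaB target genes 21 were positive (80.8%, against 52.8% of all genes; median 0.17), with 6 higher at an unadjusted p below 0.05 (23.1%, against 4.77%) and 0 past adjustment. Tnfaip3, an enzyme that restrains NF-kappaB, read 550, 410 and 688 in the knockout at 24 h, against 293, 284 and 371 untreated. In line R it read 314, 313 and 279 at 24 h, against 262, 154 and 213 untreated. It was separate in both lines (0.67 ± 0.14, adjusted p = 0.129). The chemokine gene Cxcl10 read 1090, 1090 and 675 in the knockout at 24 h, against 360, 258 and 136 untreated. Line R read 1930, 1960 and 378 at 24 h, against 1210, 143 and 1160 untreated. The 3 arrays that stand apart were the lowest of their groups, and Cxcl10 differed by 1.47 ± 0.46 (adjusted p = 0.351), and by 1.16 ± 0.20 (adjusted p = 0.0755) without the 5 arrays. Of 24 interferon-stimulated genes 19 were positive (79.2%, median 0.15), among them the RNA sensor gene Ifih1 (0.72, adjusted p = 0.387). With equal array medians, 14 of these 24 and 17 of the 26 were positive, against 43% of all genes. Without the 5 arrays the medians were 0.18 for the interferon-stimulated genes and 0.11 for the chemokine and NF-kappaB targets, against 0.01 for all genes.

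In the pooled lines, several other lists lay close to the median of all genes. Collagens had a median of 0.00 with 9 of 18 positive, matrix glycoproteins -0.01, contractile genes 0.01, heat shock genes 0.02 and genes of the PI3 kinase and Akt pathway 0.05. The list of FOXO factors and their targets, which Akt is known to hold down, had a median of 0.05 with 11 of 21 positive. Its median was -0.15 in the knockout, with 6 positive, and 0.10 in line R, with 16 positive. Collagens had -0.13 in the knockout, with 6 positive, and 0.03 in line R, with 12 positive. The PI3 kinase and Akt list had -0.07 and 0.09. Whether list medians differ between the lines was not tested. Single genes with small p values that did not pass were Timp3, an inhibitor of matrix proteases (0.60 ± 0.14, adjusted p = 0.164), Ankrd1, a target of YAP (0.83 ± 0.19, adjusted p = 0.165), and Gla, a lysosomal galactosidase (0.54 ± 0.12, adjusted p = 0.142). Fabp4, a fatty acid carrier of adipocytes, differed by 0.53 (adjusted p = 0.309), and Slc7a11, a cystine transporter, by 0.64 (adjusted p = 0.346).

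**Figure D5:**
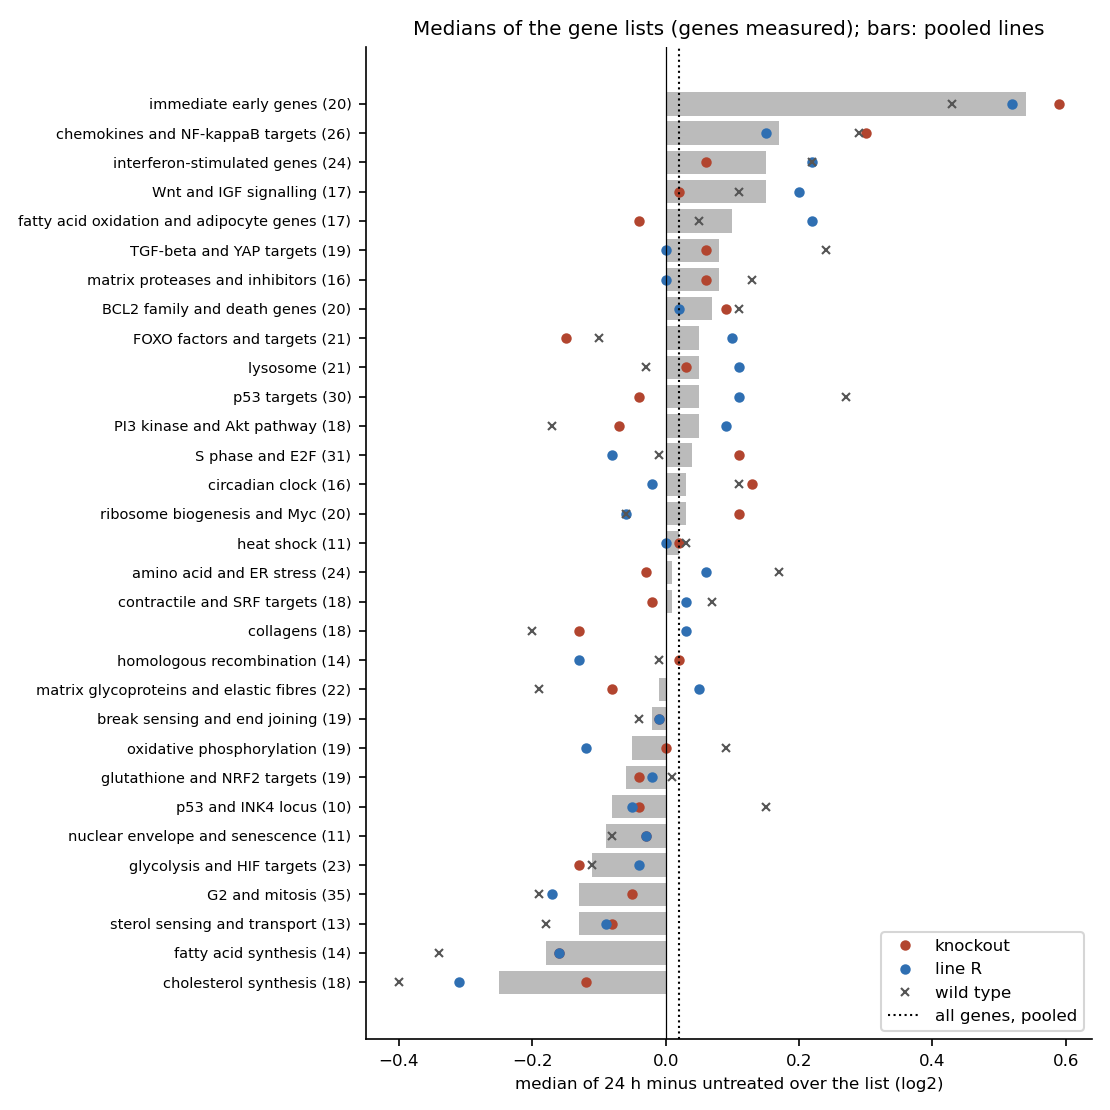
Median log2 difference between 24 h and untreated cells over each of 31 gene lists, with the number of genes measured in brackets. Bars give the pooled lines, circles the knockout (red) and line R (blue), crosses the wild-type line, and the dotted line the median of all genes at 0.02. Immediate early genes have the highest pooled median (0.54) and cholesterol synthesis genes the lowest (-0.25).

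Whether the Akt1-low lines differ from each other in the 24 h response was tested in the same fit. Only Ang3, a ribonuclease gene of the angiogenin family, passed (0.0055% of genes). It read 1.37, 1.59 and 4.55 in the knockout at 24 h, against 6.33, 28.2 and 13.9 untreated. The line R arrays read 30.2, 22.6 and 39.2 at 24 h, against 1.3, 0.641 and 1.18 untreated. All 12 values lay below background, so the response in line R minus that in the knockout (7.57, adjusted p = 0.0229) comes from values without a measurable level. It missed the threshold in 8 of the 12 fits without 1 array. Without adjustment 544 genes had p below 0.05. None of the immediate early genes passed.

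Against the wild-type line, 2 genes differed in response (0.011%), with 674 at an unadjusted p below 0.05. Ebf3, a transcription factor of mesenchymal and neural cells, read 164, 98 and 156 in the knockout at 24 h, against 128, 103 and 119 untreated. The values in line R were 196, 193 and 222 at 24 h, against 157, 179 and 183 untreated. In the wild type it read 194, 196 and 139 at 24 h, against 388, 341 and 398 untreated. The wild-type arrays at 24 h were all lower, and those of the Akt1-low lines overlapped in the knockout and were slightly higher in line R. The pooled response minus that in the wild type was 1.34 ± 0.20 (adjusted p = 0.0201). The difference in response did not pass with the mean of the probe sets (adjusted p = 0.731). The other gene, D630004K10Rik, averaged 32.8 at 24 h and 43.4 untreated in the Akt1-low lines and 16.5 and 2.63 in the wild type, all below background (-3.05 ± 0.36, adjusted p = 0.000975).

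The 9 genes called in the Akt1-low lines did not pass this test against the wild type. For Klf10 the difference at 24 h was 0.37 in the wild type and for Nr4a1 1.06 ± 0.25. For Klf4 it was 0.90, for Ahr 0.34, for Kcnk2 0.66, for Glipr1 0.64, for Serpinb9b 1.08 and for Zfp41 -0.36, which for these 8 is the sign of the pooled lines. Cym, below background, had the opposite sign in the wild type (-0.08 ± 0.37). The pooled response minus that in the wild type was 1.64 ± 0.45 for Cym (limma's adjusted p = 0.773). Of the other 8 it was largest for Ahr (0.59 ± 0.27), with an adjusted p of 0.998 for each. For Nr4a1 that difference was 0.04 ± 0.31 and for Klf4 0.06 ± 0.30. A p that misses the threshold does not show that the responses are alike. The immediate early list had 17 of 20 positive differences in the wild type (52.6% of all genes were positive), with a median of 0.43.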

How the data were processed

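Linear intensity values of 45101 probe sets on 27 arrays were deposited. The mean of an array, once 2% of its values are trimmed at each end, averages 500.003 over the 27 arrays. RMA and GCRMA are listed, with no version, in the submitters' processing notes. The values do not have the form these give, so the summary method is not given in the sources used here. Intensities carry no counting depth, so precision is limited by how many arrays there are.

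Intensities were converted to log2 with no offset. Probe sets with 1 gene symbol in the platform annotation (34945; 932 had several and 9160 none) gave 18193 genes, each read by its brightest probe set. The background level was the highest of 243 values for 3 Y-linked genes, with Sry not among them. Group means of all 27 arrays were fitted with limma 3.58.1 in R 4.3.3, which shares 1 spread over the 9 groups (18 residual degrees of freedom), two-sided, with Benjamini-Hochberg adjustment over all genes. The pooled difference is the mean of the differences of both lines, so each line keeps its own baseline. The fit was tested on simulated data. Errors are standard errors.

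Genes were named by rule: Akt1, Akt2, Cdkn1a, Mdm2 and Ccng1, called genes above background, the smallest p values where a direction had fewer than 5, up to 4 members of each of 38 lists and up to 5 for each difference in response. Cym, Ang3, Dusp6, Spry2, Rnd1, Adamts20, the full immediate early list and the cell type markers were added. The comparison, lists and rule were chosen with earlier results of these data known. Groups were taken from titles, since some descriptions call irradiated wild-type samples untreated. Replicate numbers did not pair the arrays: over 18 pairs of the 12 arrays, deviations around group means correlated at -0.114 to 0.14. Alternatives were a replicate block, a fit on the compared arrays, an intensity trend, other scalings, floors and filters, other uses of probe sets, and arrays left out. On the compared arrays the pooled difference was fitted with line as a block and a shared 24 h term. Probe sets with several symbols or none were not used here.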

Additional observations from a re-analysis of the deposited data

Results flagged for a closer look

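The response to 24 h differed between groups for 3 genes by the test of the difference itself. For Ang3 the response in line R minus that in the knockout was 7.57 on the log2 scale, with all 12 values below the background level. Over the 19 alternatives run for it the adjusted p ran from 0.00879 to 0.132 and passed in 10. It was lost, with adjusted p from 0.0617 to 0.132, without replicate 1 or 2 of the untreated knockout, 0 or 1 of the knockout at 24 h, 0 or 1 of untreated line R, or 0 or 2 of line R at 24 h. For D630004K10Rik the pooled response minus that in the wild type was -3.05, with group means at or below about the background level (49.3 in untreated line R, lower in the others), and it was -0.02 with values floored at the background level. For Ebf3 it was 1.34, which passed in 19 of 28 alternatives. It was lost without replicate 0 of untreated line R (adjusted p = 0.0526), replicate 2 of the wild type at 24 h (0.0615), replicates 0 (0.123) and 2 (0.0622) of the untreated wild type, and without the 5 arrays that stand apart (0.236), all by limma. It was also lost by limma on the compared arrays (0.286), with an intensity trend (0.178) and with the mean of all probe sets (0.731). The same held above the median level without the 5 arrays (0.106).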

How the results depend on the processing

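The pooled count of 9 was 0 on the 12 compared arrays (1260 at an unadjusted p below 0.05), 35 among genes above the median level, 1 with quantile normalization, 79 with a floor at the background level (50 higher, 29 lower), 3 with the mean of all probe sets, 1 with each probe set by itself and 3 without the 5 arrays that stand apart. It was 0 in the knockout alone and 0 in line R alone. Leaving out 1 array gave 1 to 8. Above the median level and without the 5 arrays, chosen after seeing the data, it was 56 (31 higher, 25 lower). With 8 of the 9 genes shared, the settings that removed or floored dim genes called more. The 1 gene that differed between the lines became 0 on the compared arrays, 0 above the median level, 2 with the floor, 4 without the 5 arrays, 0 in the added setting and 0 to 2 without 1 array. The 2 genes that differed from the wild type became 0 with an intensity trend, 1 above the median level, 10 with the floor, 1 with the mean of all probe sets, 1 with each probe set by itself, 0 in the added setting and 1 to 6 without 1 array. A replicate block, although the numbers do not pair the arrays, gave 6, 2 and 2 calls. The cause of these shifts was not tested.

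Signs of differences that had not passed turned for 8 genes. Akt1 gave -0.021 with the floor, and -0.44 to 0.69 without 1 array. The mean of all probe sets gave 0.19 for Akt2, 0.05 for Ccng1 and -0.049 for Spry2, and line R alone gave 0.033 for Ccng1. Fosb gave -0.10 with quantile normalization, -0.021 with equal medians and -0.45 in the knockout alone, and -0.47 to 0.34 without 1 array. Fosl2 gave 0.048 without the 5 arrays, also above the median level, 0.11 in line R alone, and -0.14 to 0.10 without 1 array. Jund gave -0.065 with equal medians and -0.48 in the knockout alone, and -0.14 to 0.24 without 1 array. Adamts20 gave 0 with the floor. Differences between values below the background level are not measured.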
